A study of Sus scrofa domesticus with 4 samples.

Results

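The genes described here encode a small protease system of the extracellular matrix: the collagenase MMP1, the stromelysin MMP3, the gelatinases MMP2 and MMP9, the urokinase plasminogen activator PLAU, its receptor PLAUR, and the inhibitors TIMP1 and TIMP2. They were chosen by function and selected on measured values, the log2 ratios of orexin A (OXA) over control on these same arrays, so their ratios, and any count of them past a threshold, are given as a description and support nothing. Probes were assigned through the RefSeq identifiers in the scanner files. By that rule 7 of the 8 genes had probes, 12 of the 43603 on the array, and no probe was matched to PLAUR, which is not analysed here.

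Slices of endometrium, the uterine lining, came from 4 mature Large White x Polish Landrace gilts on days 15 to 16 of gestation. After 2 h of preincubation they were cultured for 24 h with OXA, a neuropeptide hormone, or without it. The sample labels state a dose of 10 nM, whereas the series text states 10 µM. Each of 4 Agilent 2-colour arrays set an RNA from OXA-treated slices against an untreated control RNA. Going by the dye labels of each sample, the OXA RNA carried Cy5 on arrays 1 and 3 and Cy3 on the other 2, while the labelling protocol words it in Cy5 throughout. The authors' deposited ratios follow Cy5 over Cy3 on arrays 1 and 3 and are reversed on arrays 2 and 4. That is the orientation of the sample labels. The sample labels were followed, and the mean ratio of each gene under the other reading is given with the dye coefficients. Array 1 was on a slide of its own, and arrays 2 to 4 shared another slide.

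Probes well above background made up 62.4% to 74.5% in Cy5, and in Cy3 31.8% on array 1 and 52.1% to 56.7% on arrays 2 to 4. There were no saturated spots, and precision is limited by how few arrays there are. The tissue label was checked against markers. All 8 epithelial markers on the array, EPCAM, CDH1 and KRT8 among them, and 3 of 4 stromal markers were well above background in all 8 readings (4 arrays, both dyes). Of the 4 trophoblast markers on the array, TFAP2C was above it in 8 readings, GATA3 in 7, IFNG in 4 and CDX2 in none. Slices hold many cell types, and in such bulk RNA fewer cells of a type and less RNA per cell cannot be told apart.

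Matrix metalloproteinases are secreted or membrane-bound zinc enzymes made as inactive precursors. MMP1 cuts fibrillar collagen, MMP3 cuts proteoglycans and other matrix proteins and can activate the MMP1 precursor, and MMP2 and MMP9 digest denatured and basement membrane collagen. Urokinase turns plasminogen into plasmin, which cuts fibrin and activates several of these precursors, and the TIMPs bind and block the active enzymes. In the pig the placenta stays superficial, and the endometrium is remodelled while the conceptus attaches in the days sampled here.

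All 12 probes were bright enough to read, apart from 1 reading of the second MMP9 probe. Of their 8 readings each, 11 probes were well above background in all 8, and the second MMP9 probe in 7. The exception was the control RNA in Cy3 on array 1, at 246.5, below the median of 251 of the negative-control spots there. No spot of these probes was marked as an outlier. MMP1 (probe A_72_P413508), MMP3 (A_72_P256152) and TIMP2 (A_72_P321983) had a single probe each. MMP2, MMP9 and PLAU had 2, and TIMP1 had 3. Values are of the brightest probe of a gene unless another is named.

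Brightness is given as the raw median intensity of a spot, in scanner units, which can be compared within a probe and a dye but not between probes or dyes. MMP1 read 22578.5, 25071, 68642 and 6253 in the OXA RNAs of arrays 1 to 4, against 5283, 51854, 8107 and 4870 in the control RNAs. MMP3 read 3988, 10347, 17561 and 1262 in the OXA RNAs, against 1741, 27446, 2093 and 982 in the control RNAs. Within a dye, both genes were lower on array 4 than on array 2, in OXA and in control RNAs alike.

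The other members were also bright. MMP2 ranged from 25242 to 138801 in OXA RNAs and from 20839.5 to 115767 in control RNAs, MMP9 from 607 to 3755 in OXA RNAs and from 695 to 2873 in control RNAs, and PLAU from 54263 to 280598 in OXA RNAs and from 31922 to 331534 in control RNAs. TIMP1 ranged from 44351 to 130837 in OXA RNAs and from 20322 to 302329 in control RNAs, and TIMP2 from 4311 to 23928 in OXA RNAs and from 5329 to 24410 in control RNAs. The negative-control spots had medians of 68 to 74 in Cy5 and 154 to 251 in Cy3, so every one of these readings lay above them.

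MMP1 was the member with the highest mean ratio and the narrowest spread. Its log2 ratio of OXA over control was 1.03, 0.78, 0.83 and 1.203 on arrays 1 to 4, with a mean of 0.96 ± 0.19 (SD, n = 4), a fold of 1.95. Every array was above 0, and the means were alike with OXA in Cy5 (0.93) and in Cy3 (0.99). The normalized log2 level of MMP1 in OXA-treated slices was 14.03, 15.42, 14.88 and 13.26 on arrays 1 to 4, against 13.00, 14.64, 14.05 and 12.06 in control slices. The OXA value was the higher of the pair on each array, yet the groups overlapped, because the arrays lay further apart than the pairs did. Leaving out any 1 array left the mean between 0.86 and 1.07. If OXA had been in Cy5 on every array, as the labelling protocol words it, the mean would be -0.031. The authors' deposited ratios do not follow that wording.

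MMP3, which can activate the MMP1 precursor, had log2 ratios of 0.20, 0.26, 1.10 and 0.29 on arrays 1 to 4, with a mean of 0.46 ± 0.43 (SD, n = 4). All 4 arrays were above 0, and array 3 stood apart from the rest. Without array 3 the mean was 0.24, and without array 1 it was 0.69. Its level was 11.84, 14.04, 13.22 and 10.98 in OXA-treated slices, against 11.63, 13.79, 12.11 and 10.69 in control slices. These groups overlapped over nearly their whole ranges. How far array 3 stood apart depended on the processing: on array 4 the MMP3 ratio was 0.29 after normexp background correction, 1.30 with none, and 1.55 in Agilent's own ratio. On arrays 1 to 3 the same choices moved it by less, to 0.19, 0.40 and 1.05 with no correction and to 0.17, 0.38 and 1.02 in Agilent's ratio. The raw median intensity of the probe on array 4 was 1262 in the OXA RNA (Cy3) and 982 in the control RNA (Cy5).

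**Figure D1:**
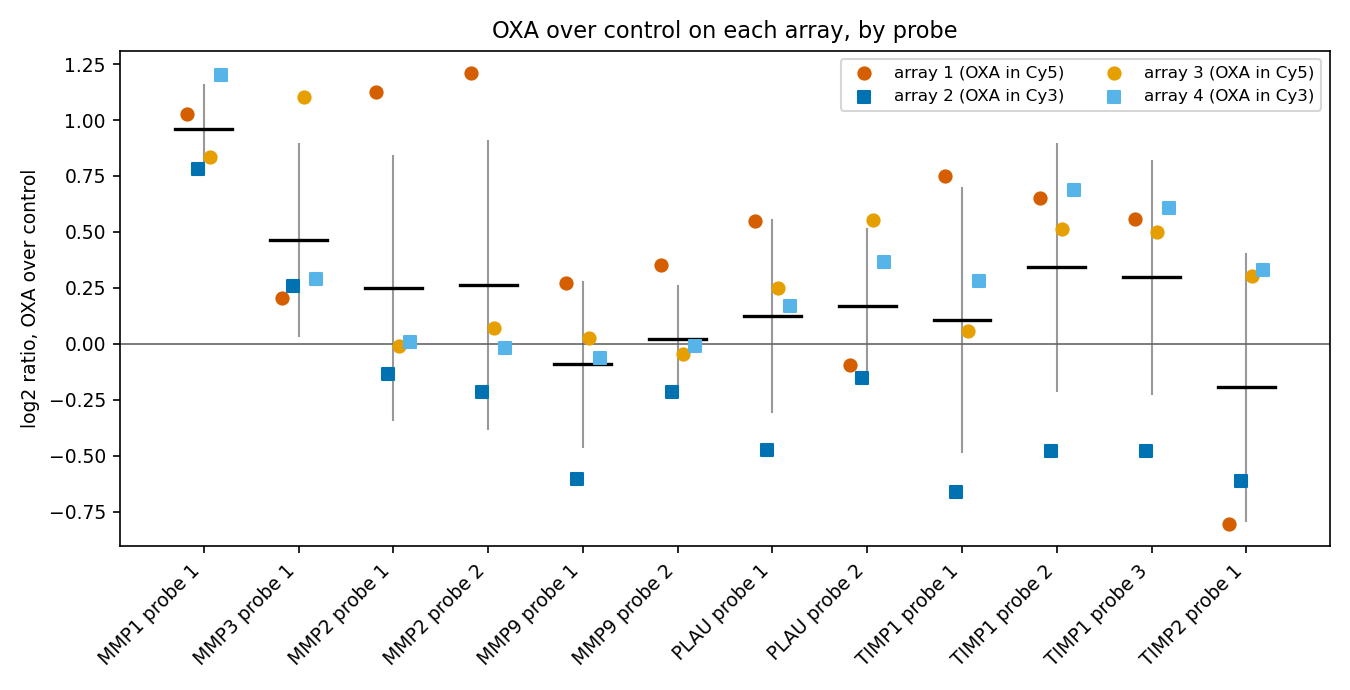
Log2 ratio of OXA over control (vertical axis) for each probe (horizontal axis), with a point for each array, a black bar for the mean and a grey line for ± 1 SD (n = 4 arrays); probes of a gene run from brightest to dimmest. The 4 MMP1 points lie between 0.78 and 1.203, and the MMP2 points lie near 0 except array 1.

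The gelatinases had no common direction over the arrays. MMP2, which stromal fibroblasts are known to make, had log2 ratios of 1.13, -0.13, -0.01 and 0.01, with a mean of 0.25 ± 0.59 (SD, n = 4). Its second probe gave 1.21, -0.21, 0.07 and -0.02. Both probes were thus high on array 1 and close to 0 on the other 3, and without array 1 the mean of the first was -0.04. The MMP2 level averaged 15.84 ± 0.26 in OXA-treated slices and 15.59 ± 0.47 in control slices (SD, n = 4 each), and the groups overlapped. Stromal fibroblast markers were also highest on array 1. Their median over 3 tested genes of 10 listed was 1.44, 0.02, 0.09 and 0.26 on arrays 1 to 4, and the mean ratios of DCN and LUM, 2 proteoglycans of collagen fibrils, were 0.43 and 0.39. The raw intensity summed over the 4 stromal markers on the array ranged from 13876.5 to 107907 in OXA-treated slices and from 18535 to 89551 in control slices. Each range spans arrays read in Cy5 and in Cy3, so the 2 ranges do not compare the treatments. None of the 4 markers was below background in every reading. The part of these markers in the MMP2 ratio was not tested.

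MMP9, known from leukocytes and trophoblast, had log2 ratios of 0.27, -0.61, 0.03 and -0.06, with a mean of -0.09 ± 0.37 (SD, n = 4). The second probe gave 0.35, -0.22, -0.04 and -0.01, with a mean of 0.02. Its values depended on the processing. In Agilent's ratio it gave 0.93, -1.17, -0.55 and -0.69, with a mean of -0.37, and with no background correction its mean was -0.14. Array 1 was above 0 and array 2 below it with both probes. The array 1 ratio of the second probe rests on a control reading that was not well above background. The mean of the brightest probe was 0.04 without array 2 and -0.23 without array 4. Neutrophil markers, of which 4 of 9 listed were tested, had medians of 0.06, -0.48, 0.38 and -0.56 on arrays 1 to 4, and 7 of 10 myeloid markers had 0.59, -0.51, 0.23 and -0.55. Their part in the MMP9 ratio was not tested. Raw intensities summed over the neutrophil markers ranged from 1542.5 to 20810.5 in OXA-treated slices and from 1411 to 23170.5 in control slices. For the myeloid markers they ranged from 6350.5 to 47013 in OXA-treated slices and from 5749 to 40759.5 in control slices. These ranges also mix both dyes and do not compare the treatments. No marker of these 2 lists was below background in every reading.

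PLAU had log2 ratios of 0.55, -0.47, 0.25 and 0.17 on arrays 1 to 4, with a mean of 0.12 ± 0.43 (SD, n = 4). Its second probe gave -0.09, -0.15, 0.55 and 0.36, with a mean of 0.17. The probe means were close, but on array 1 the 2 probes had opposite signs and differed by 0.64. Leaving out 1 array moved the mean of the brightest probe over 0, between -0.04 (without array 4) and 0.29 (without array 2). The level of the brightest PLAU probe averaged 16.75 ± 0.087 in OXA-treated slices and 16.63 ± 0.42 in control slices (SD, n = 4 each). With the second probe the spreads were closer, an SD of 0.33 in OXA-treated slices and 0.38 in control slices.

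The inhibitors did not share a direction over the arrays either. TIMP1, which binds most of these enzymes and the MMP9 precursor, had log2 ratios of 0.75, -0.66, 0.06 and 0.28, with a mean of 0.11 ± 0.59 (SD, n = 4). Its other probes gave means of 0.34 ± 0.55 and 0.30 ± 0.52 (SD, n = 4). With every TIMP1 probe, array 2 was below 0 (-0.66, -0.48 and -0.48) and arrays 1, 3 and 4 above it. TIMP2, which inhibits MMP2 and also takes part in activating its precursor at the cell surface, had log2 ratios of -0.80, -0.61, 0.30 and 0.33, with a mean of -0.20 ± 0.60 (SD, n = 4). Arrays 1 and 2 were below 0 and arrays 3 and 4 above it. The TIMP1 level averaged 16.29 ± 0.41 in OXA-treated slices and 16.18 ± 0.68 in control slices, and the TIMP2 level 13.54 ± 0.64 in OXA-treated slices and 13.74 ± 0.49 in control slices (SD, n = 4 each). Both genes overlapped between the groups. Leaving out 1 array took the TIMP1 mean between -0.13 and 0.34 and the TIMP2 mean between -0.47 and 0.08.

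**Figure D2:**
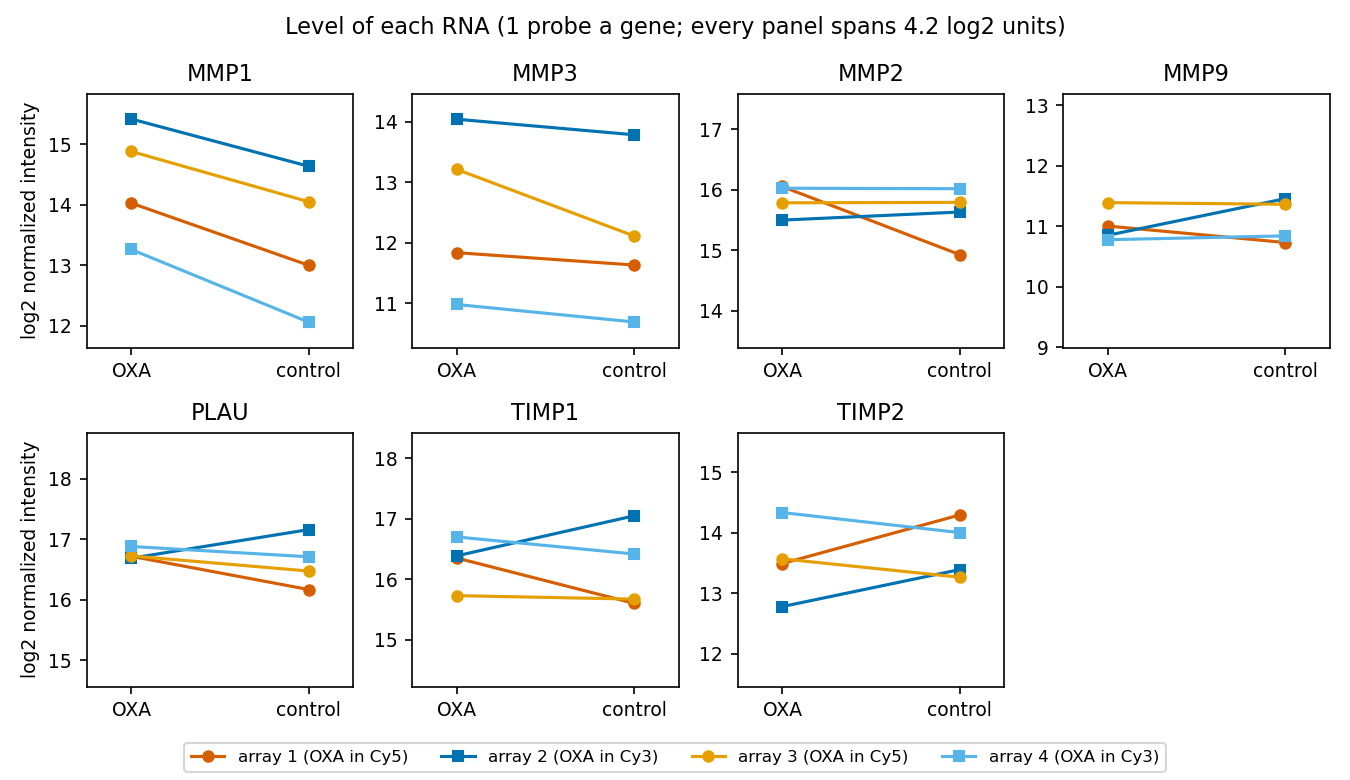
Normalized log2 intensity (vertical axis) in OXA-treated and control slices, a line for each array joining its 2 RNAs, in panels of equal span; levels are not comparable between panels. In MMP1 every line is higher at OXA while the arrays are spread over several log2 units, and in TIMP2 the lines of arrays 1 and 2 are lower at OXA and those of arrays 3 and 4 higher.

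Across the array, 0 of 26927 tested probes (0%) passed an adjusted p of 0.05 for OXA over control in limma with Benjamini-Hochberg adjustment. At an unadjusted p under 0.05 there were 509, and an intensity trend with robust fitting called 3 after adjustment. A looser rule, which asked for a fold of at least 1.2 and an unadjusted p under 0.05, took 177 probes higher with OXA (0.657%) and 179 lower (0.665%). Of the 12 member probes, 1 was past the looser rule and higher (MMP1) and 0 lower. The members were selected on this contrast, so nothing is read from that count. MMP1 ranked 4th from the highest mean ratio of the 26927 after normexp and loess, 21st with no background correction, and 144th in Agilent's ratio. The rank also moved with the arrays used, to 149th without array 3 and 283rd without array 4, and it was 19643 with OXA read as Cy5 on every array. All 4 arrays were above 0 for 7.67% of tested probes and below 0 for 4.25%, and among the members this held for MMP1 and MMP3, both above.

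Where a gene had several probes, these were set against one another. The means of the MMP2 probes differed by 0.014, those of PLAU by 0.043, those of MMP9 by 0.11 and those of TIMP1 by 0.24. The median range over the 1208 named genes with at least 2 tested probes was 0.13. On single arrays the probes parted more, by up to 0.082 for MMP2, 0.39 for MMP9, 0.45 for TIMP1 and 0.64 for PLAU. All probes of a gene had the same sign on 4 of 4 arrays for TIMP1, on 3 for MMP9 and PLAU, and on 2 for MMP2. The MMP2 values lay near 0 on its other arrays. For MMP9 the count includes array 1, where the control reading of the second probe was not well above background.

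The balance of proteases and inhibitors was taken on each array as the mean log2 ratio of MMP1, MMP3, MMP2, MMP9 and PLAU minus that of TIMP1 and TIMP2. It was 0.66, 0.60, 0.26 and 0.01 on arrays 1 to 4, with a mean of 0.39 ± 0.30 (SD, n = 4). With the brightest probe of each gene it was above 0 on every array, but barely on array 4. There the TIMP1 probe used was 0.28, while the other TIMP1 probes were 0.69 and 0.60. With either of those the balance on array 4 would fall below 0. The protease mean alone was 0.64, -0.03, 0.44 and 0.32, and the TIMP mean was -0.03, -0.64, 0.18 and 0.31. On array 2 the TIMP mean was low and the protease mean near 0, but the proteases were split. There MMP1 (0.78) and MMP3 (0.26) were above 0, and MMP2 (-0.13), MMP9 (-0.61) and PLAU (-0.47) below it. Without MMP1 and MMP3 the balance was 0.68, 0.23, -0.09 and -0.27, with a mean of 0.14 ± 0.42 (SD, n = 4). With OXA read as Cy5 on every array the mean balance of all 7 genes would be 0.077.

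Single pairs of an enzyme and an inhibitor that binds it differed in direction. MMP1 minus TIMP1 was 0.28, 1.45, 0.78 and 0.92 on arrays 1 to 4, with a mean of 0.86 ± 0.48 (SD, n = 4), and above 0 on each. MMP3 minus TIMP1 was -0.55, 0.92, 1.05 and 0.01, and MMP9 minus TIMP1 was -0.48, 0.06, -0.03 and -0.35. The first of these was above 0 on 3 arrays and the second on 1. On array 4 MMP3 (0.29) lay above the brightest TIMP1 probe (0.28) but below the others (0.69 and 0.60). MMP2 minus TIMP2 was 1.93, 0.48, -0.31 and -0.32 and thus above 0 on 2 arrays. MMP1 minus TIMP1 would be -0.33 with OXA read as Cy5 throughout.

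**Figure D3:**
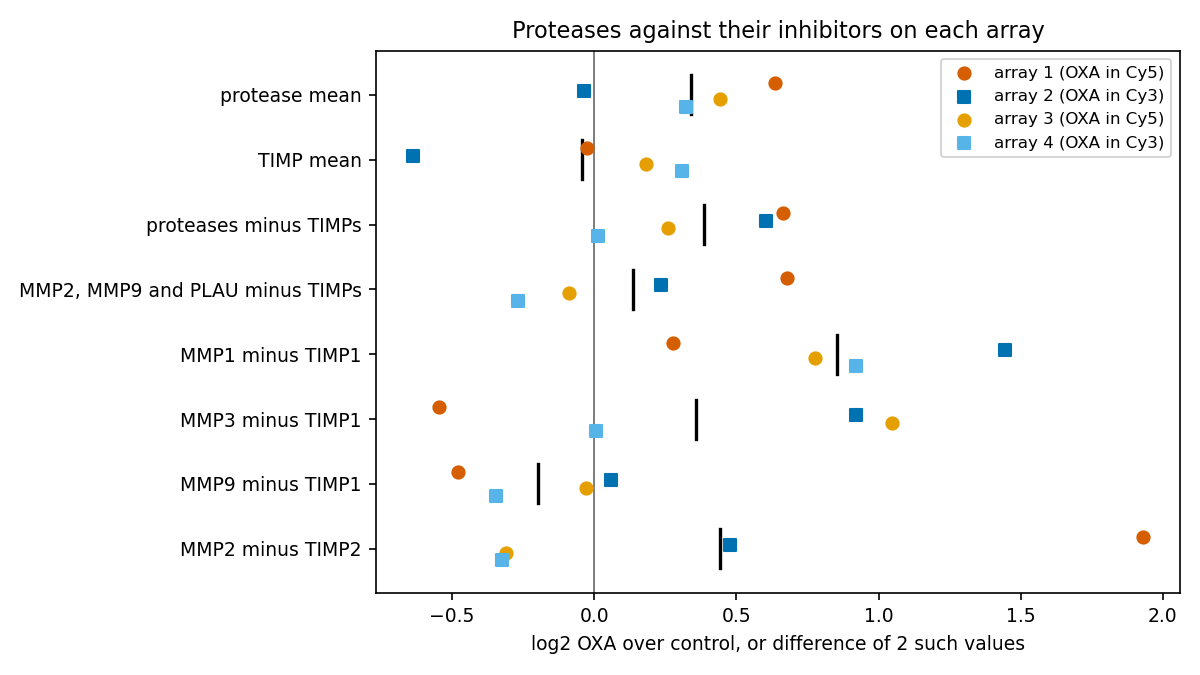
Log2 ratio of OXA over control, or the difference of 2 such values (horizontal axis), for the protease and inhibitor means, the balance and the single pairs, with a point for each array and a black bar for the mean of 4 arrays. With the brightest probe of each gene, MMP1 minus TIMP1 and the balance lie above 0 on every array, the balance barely on array 4. MMP2 minus TIMP2 spreads from -0.32 to 1.93.

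The other genes of the pathway were taken from 8 lists of 165 genes in all, of which 61 were tested. Of these 61, 27 had a mean above 0 and 34 below, with a median of -0.03, against 1026 above and 1381 below and a median of -0.02 over the 2407 named genes tested. None passed the adjusted threshold. Under the looser rule 0 were higher and 3 lower (IL6, ETS1 and JUN), against 16 higher and 43 lower of the 2407.

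Of the other plasminogen system genes, 8 of 16 listed were tested, with 5 above 0, 3 below and a median of 0.013. ANXA2, a cell surface docking protein for plasminogen and its activator, was 0.22, and its second probe 0.42. F3, tissue factor, which starts coagulation, was -0.37, with -1.22, 0.08, -0.50 and 0.16 on arrays 1 to 4. THBD, thrombomodulin, an anticoagulant receptor for thrombin, was 0.49, with 1.23, -0.41, 0.37 and 0.77 on arrays 1 to 4, and its 3 probes had means from -0.07 to 0.49. None of the 3 genes was past the looser rule.

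Other matrix proteases lay close to 0. Of 19 further metalloproteinases listed, 2 were tested: MMP14, the membrane enzyme that activates the MMP2 precursor, at 0.05 (0.44, -0.37, 0.02 and 0.09 on arrays 1 to 4), and the macrophage elastase MMP12 at 0.01. Of the ADAM and ADAMTS proteases 5 were tested, with a median of 0.04, and ADAM9 was the one of lowest unadjusted p, at 0.18. Of the cathepsins and legumain, the lysosomal proteases, 7 were tested, 1 above 0 and 6 below, with a median of -0.09. CTSZ was -0.12, CTSA -0.15, with its other probe at 0.02, and the collagen-degrading CTSK 0.16. None of the 6 further metalloproteinase inhibitors listed was on the array under the naming rule.

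Inhibitors of cathepsins and serine proteases were split, 5 above 0 and 6 below of 11 tested, with a median of -0.07. Among them the C1 inhibitor SERPING1 was 0.41, with 1.16, -0.40, 0.64 and 0.24 on arrays 1 to 4, and the cysteine protease inhibitor CST3 was -0.31. The collagens and other matrix substrates had 8 above 0 and 3 below of 11 tested, with a median of 0.09. LUM, which has 9 probes, was 0.39, with probe means from -0.13 to 0.49. The cartilage proteoglycan ACAN was -0.32, from -1.19 on array 1.

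Regulators of metalloproteinase genes had 3 above 0 and 14 below of 17 tested, with a median of -0.12, and 3 were lower under the looser rule. IL6, an inflammatory cytokine, was -0.65, with its other probe at -0.26. The transcription factors ETS1 and JUN, which act on metalloproteinase promoters, were -0.41 and -0.49. JUN was -0.53, 0.10, -1.35 and -0.19 on arrays 1 to 4, so array 2 was above 0. It was no longer past the looser rule without array 3 (-0.29) or array 4 (-0.42). ETS1 was -0.36, -0.54, -0.65 and -0.09, and it missed the rule without array 1 (-0.48), array 2 (-0.30) or array 3 (-0.34). IL6 missed it without array 1 (-0.52). Of the 14 alternative settings, IL6 was past the looser rule in 11, ETS1 in 6 and JUN in 5. Each had an adjusted p above the threshold in limma.

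The mean level of both RNAs on an array does not enter the ratio of OXA over control, and over this measure MMP1 and MMP3 varied more between arrays than nearly all other probes. The SD of that mean over the 4 arrays was 1.04 for MMP1 and 1.32 for MMP3 on the log2 scale, against a median of 0.0948 over all tested probes. Only 59 probes (0.219%) had an SD at least that of MMP1, and 24 (0.0891%) at least that of MMP3, each count including the probe itself. The lowest and the highest array were 5.16-fold apart for MMP1 and 8.44-fold for MMP3. On the shared slide of arrays 2 to 4 the SDs were 1.24 and 1.55, so the spread was as large without array 1. Array 2 was highest and array 4 lowest for both genes.

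The other members varied less. The SD of the mean level was 0.48 for TIMP1 and TIMP2, with 3.44% and 3.36% of tested probes at or above it, 0.26 for MMP9, 0.24 for MMP2 and 0.21 for PLAU. The remaining TIMP1 probes had SDs of 0.76 and 0.77, with 0.702% and 0.65% of tested probes at or above them. TIMP2 ran differently from the collagenase and the stromelysin, with its lowest array at 2 and its highest at 4.

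Raw intensities, which no normalization enters, can be compared within a dye and a treatment for arrays 2 and 4 and for arrays 3 and 1, a comparison chosen after the values were seen. In OXA-treated slices (Cy3), MMP1 was 4.01 times as bright on array 2 as on array 4, and in control slices (Cy5) it was 10.65 times as bright. For MMP3 these ratios were 8.20 in OXA-treated slices and 27.95 in control slices. The median of tested probes was 0.949 in OXA-treated and 0.960 in control slices, so the arrays as a whole did not differ in this way. Between arrays 3 and 1, MMP1 was 3.04-fold brighter in OXA-treated slices (Cy5) and 1.54-fold in control slices (Cy3), and MMP3 4.40-fold and 1.202-fold, against medians of 1.33 and 0.788. The labels do not tie the RNAs of an array to one gilt or to several, and differences between animals, culture runs and arrays cannot be told apart.

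**Figure D4:**
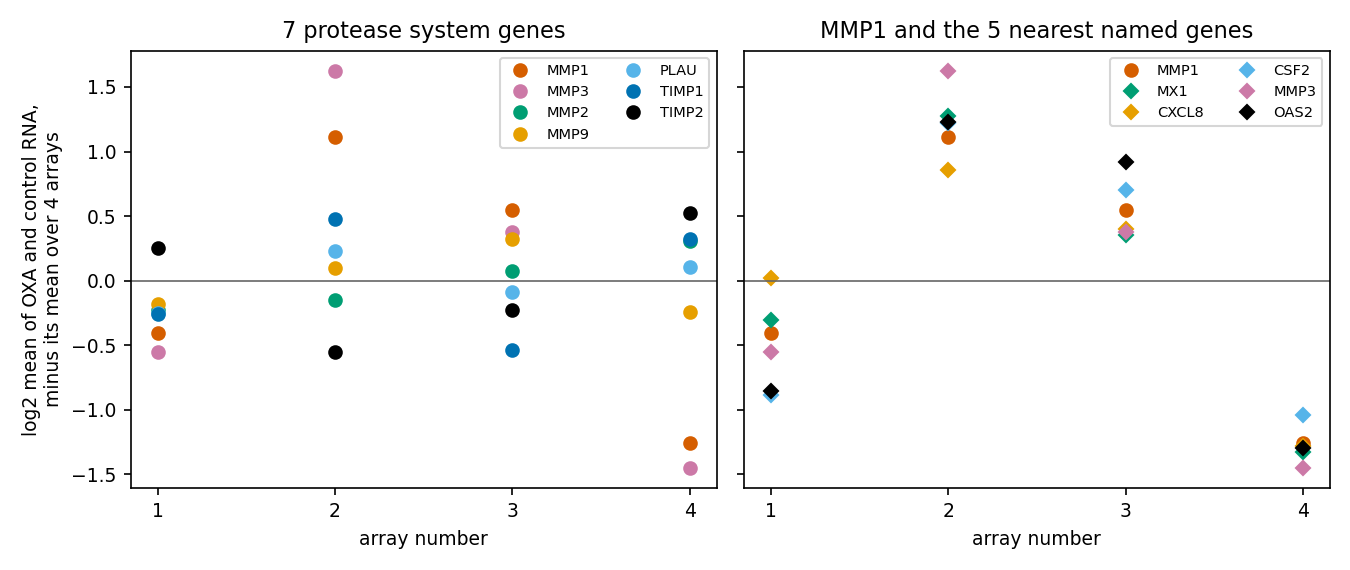
Mean log2 level of the OXA and control RNA on each array minus its mean over the 4 arrays (vertical axis), by array number (horizontal axis), for the 7 protease system genes (left) and for MMP1 with the 5 named genes nearest to it (right). MMP1 runs -0.40, 1.11, 0.55 and -1.26 and MMP3 -0.55, 1.63, 0.38 and -1.45. With the brightest probe of each gene, the other 5 members stay within 0.6 log2 units of their means.

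The named genes whose mean level over the 4 arrays ran closest to MMP1 and MMP3 were then listed, by the Euclidean distance of their centred log2 levels, a measure chosen after the values were seen. The 5 nearest to MMP1 were MX1 (distance 0.287), CXCL8 (0.512), CSF2 (0.564), MMP3 (0.597) and OAS2 (0.598). Those nearest to MMP3 were OASL (0.351), MX1 (0.448), RSAD2 (0.460), MMP1 (0.597) and CSF2 (0.743). MX1, OAS2, OASL and RSAD2 are known as interferon-induced antiviral genes, CXCL8 is a chemokine for neutrophils and CSF2 a myeloid growth factor. MX1 ran -0.30, 1.28, 0.35 and -1.33 on arrays 1 to 4, close to the -0.40, 1.11, 0.55 and -1.26 of MMP1. MMP1 and MMP3 each ranked 4th of 2406 named genes in nearness to the other. They lie on the same chromosome with 0 coding genes between them in the reference table of assembly Sscrofa11.1. With 4 arrays such likeness is a description of these arrays.

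The same search by the ratio of OXA over control gave other genes. The nearest to MMP1 were C1S (distance 1.06, with 1.15, 0.09, 0.79 and 0.40 on arrays 1 to 4), a complement protease, and NOP56 (1.08), a ribosome assembly factor, followed by ID1, ALG2 and FASN. The nearest to MMP3 was ALDH2 (0.375, with 0.05, 0.01, 0.89 and 0.20), a mitochondrial dehydrogenase, followed by NME1, VCAM1, SNRPD3 and PSMA5. Neither list held another member.

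The dye coefficient of the fit, Cy5 over Cy3 whatever the RNA, was not used to choose the members. It was -0.03 (SE 0.0985) for MMP1, 0.19 (SE 0.17) for MMP3 and -0.06 for TIMP2, and between 0.06 and 0.38 for the other 9 probes. None of the 12 had an adjusted p under 0.05 (0.932 to 0.964 in limma), nor did any of the 26927 probes (0%), of which 1043 had an unadjusted p under 0.05. For MMP2, MMP9, PLAU and TIMP1 the dye coefficient of the brightest probe (0.31, 0.24, 0.28 and 0.30) was larger in size than the OXA ratio (0.25, -0.09, 0.12 and 0.11). If OXA had been in Cy5 on every array, these dye coefficients would be the ratios of OXA over control: -0.031 for MMP1, 0.19 for MMP3, 0.31 for MMP2, 0.24 for MMP9, 0.28 for PLAU, 0.30 for TIMP1 and -0.06 for TIMP2. MMP1 and MMP9 would then have the other sign. MMP3 minus TIMP1 would be -0.11, MMP9 minus TIMP1 -0.055 and MMP2 minus TIMP2 0.37.

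**Figure D5:**
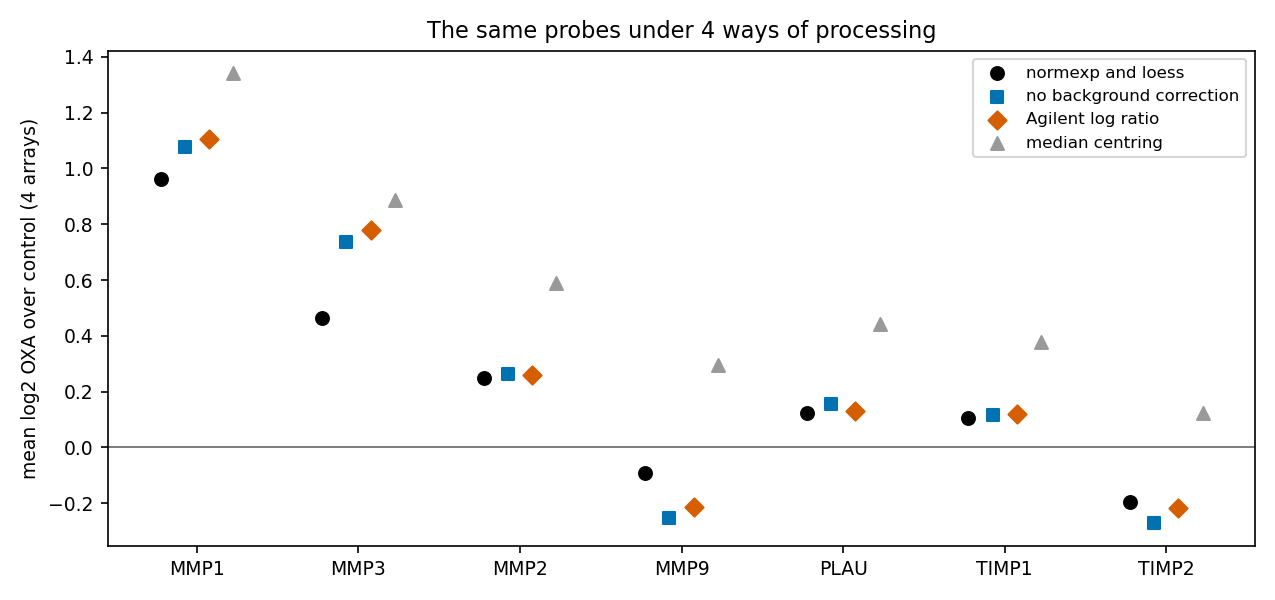
Mean log2 ratio of OXA over control over 4 arrays (vertical axis) for the brightest probe of each gene (horizontal axis) under 4 ways of processing. MMP1 lies between 0.96 and 1.34, and under median centring MMP9 and TIMP2 lie above 0.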

How the data were processed

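Per the file headers, the authors' scanner files come from Agilent Feature Extraction 10.7.3.1 and hold the median intensity of each spot and of its background in both dyes, and log10 values of the Cy5 to Cy3 ratio, which the software had background-subtracted and dye-normalized. The authors' deposited value table holds log2 ratios. Against the scanner ratios its columns had slopes of 1.06, -1.00, 1.04 and -1.03 over 43420 probes. This gives a log2 scale and OXA over control, with the dyes as in the sample labels. The column medians were -0.17, 0.06, -0.06 and 0.09, with the centring unknown. The value table equalled Agilent's ratio at all 12 member probes within 0.001.

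Median intensities were corrected with normexp (offset 50), normalized by loess with control spots at weight 0, and fitted in limma 3.58.1 (R 4.3.3) with an OXA and a dye coefficient, which left 2 residual degrees of freedom (3.89 after moderation). Moderated p-values were adjusted by Benjamini-Hochberg over 26927 probes well above background in at least 4 of 8 readings. Outlier spots were left out, which removed 135 probes. Levels of each RNA were set on one scale by Aquantile. RefSeq identifiers named 6700 of 7125 probes, 3029 genes, through a reference table of Sscrofa11.1. Coordinates are left out, since the headers name no genome build.

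Some genes of the lists are not reported here, and 1 of them was left out of the list counts. The members, lists and tests were chosen with earlier results of these data known. Named were all members and their probes, up to 3 genes of each pathway list and 2 of each marker list with the lowest unadjusted p, and also the 5 genes nearest to MMP1 and MMP3. Arrays are the replicates. The labels give 4 gilts and duplicate cultures in 4 experiments without tying RNAs to gilts. With the dye coefficient in the fit, p-values measure the moderated spread between arrays of the same dye orientation, which may be partly technical. The SDs given for the ratios are over all 4 arrays. The fit was tested on simulated data. Alternatives were other background corrections, normalizations, filters, variance models, weights, dye orientation, probe summaries and each array left out.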

Additional observations from a re-analysis of the deposited data

Results flagged for a closer look

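The 68 sets of 4 array values examined included those of the members' probes and of the list genes named. Of these sets, 7 had 1 array far from the other 3 by Dixon's criterion, which chance alone meets in about 1 of 20 sets. The members were selected on these ratios, so theirs are listed as a description. Among the members, MMP3 was 1.10 on array 3, the first MMP2 probe was 1.13 on array 1, and both other TIMP1 probes were -0.48 on array 2. With no background correction MMP3 was higher on array 4 (1.30) than on array 3 (1.05), as in Agilent's ratio (1.55 and 1.02). Array 3 thus stood apart for MMP3 after normexp but not in these 2. Among the other genes, all 3 were low on array 1: the tight junction gene OCLN at -1.38, the cartilage proteoglycan ACAN at -1.19 and the B cell marker CD79A at -0.42. CD79A was dim, with raw medians of 197.5 in Cy5 and 205.25 in Cy3 and 6 readings well above background. Array 1 was alone on its slide and had the lowest share of probes well above background in Cy3 (31.8%). The part of this in the values was not tested.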

How the results depend on the processing

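The members' ratios carry no call, so only their values were followed. The dye coefficient, the filters, the array weights and the variance model cannot change a mean ratio here, and the authors' table equals Agilent's ratio at these probes, so stability is read from none of these. MMP1 was 1.08 with no background correction, 1.11 in Agilent's ratio, 1.34 with median centring and -0.031 with OXA read as Cy5 on every array. The balance of proteases and inhibitors was 0.47, 0.46, 0.46 and 0.077 under the same settings, 0.33 with the mean of all probes of a gene, and between 0.24 and 0.53 with an array left out. MMP3 ranged from 0.19 to 0.89. Median centring raised both means but spread the arrays widely, with array 2 below 0. MMP1 was then 2.21, -0.27, 3.06 and 0.36 on arrays 1 to 4, and MMP3 1.30, -0.62, 2.82 and 0.05. MMP2, PLAU, TIMP1, TIMP2 and MMP9 each took both signs, and MMP9 reached 0.29 with median centring. IL6 was 0.10 with OXA read as Cy5 on every array. The count of probes past the looser rule, 356 with 49.7% higher, was 1405 (58.1% higher) with no background correction, 1829 (68.9%) with Agilent's ratio, 1824 (68.6%) with the authors' table, 4292 (99.9%) with median centring, 681 (84.9%) with OXA read as Cy5 on every array and 193 (39.4%) with array weights. It was 326 (65.3%) with no dye coefficient, 516 (67.6%) over the 13594 probes well above background in all 8 readings, 363 (71.3%) with an intensity trend and robust fitting, and 286 to 3120 with an array left out (3120 without array 3 and 2047 without array 4). Median centring moved the median of all probes to 0.14, against 0.02. The cause of these shifts was not tested.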

Other observations

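Markers of the cell types a slice can hold also differed between the arrays. Epithelial markers, of which 8 of 12 listed were tested, had median log2 ratios of OXA over control of -0.84, -0.28, -0.12 and 0.53 on arrays 1 to 4, and their median mean ratio was -0.11. CLDN3, a tight junction protein of epithelia, was -0.45. Smooth muscle markers (4 tested) had medians of 0.10, -0.84, 0.38 and -0.16, and endothelial markers (4 tested) 0.68, -0.51, -0.20 and -0.45. None of these lists held a gene past the looser rule.

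The 7 tested T and NK cell genes had a median of -0.03 (0.09, -0.28, 0.20 and -0.20 on arrays 1 to 4). The 3 tested trophoblast genes had a median of 0.05 (0.24, -0.05, 0.12 and -0.01). Among them TFAP2C was 0.45, with 1.21 on array 1, and GATA3 was -0.10. No erythrocyte marker was on the array under the naming rule. No test of the members against these lists was made.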
